A study of Mus musculus with 6 samples.

Results

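The genes described here are 8 genes of mitochondrial fatty acid oxidation and of the steps beside it: *Cpt1a*, *Cpt1c*, *Acadvl*, *Echs1*, *Eci1*, *Etfb*, *Acot2* and *Echdc1*. They were taken by symbol from the table of read counts and FPKM values (fragments per kilobase of gene length, scaled to the library total), in which they were 8 of 4864 complete genes and 8 of the 3705 genes whose FPKM averaged 0.5 or more. All 8 were therefore tested. The symbols, not their values, chose them, and *Cpt1a*, *Acadvl*, *Eci1*, *Etfb* and *Echdc1* were also genes that the study displayed from these same libraries, so they are not an independent choice.

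Adipose-derived stem cells (ADSCs) of WT genotype from subcutaneous adipose tissue, isolated in the study from male C57BL/6J mice, were differentiated into adipocytes without a compound (control, the vehicle group) or with NJT-2, and mRNA from 3 libraries per group was sequenced. NJT-2 is saikosaponin A, a natural triterpenoid glycoside that the study selected as an agonist of PPARγ, the receptor that drives adipocyte differentiation. All cultures received the same adipogenic cocktail of dexamethasone, insulin, 3-isobutyl-1-methylxanthine, indomethacin and triiodothyronine, and the comparison asked which genes of metabolism NJT-2 changed. The study gives a nanomolar concentration of NJT-2 for its work on cells without stating it separately for the sequenced cultures, and the age of the mice that gave the cells is not stated. Nothing in the labels says that the 3 libraries of a group came from separate animals, so p-values measure the spread between these libraries only.

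Long-chain fatty acids enter mitochondria as carnitine esters, which carnitine palmitoyltransferase 1 makes on the outer membrane. Inside the matrix the acyl-CoA chain is shortened in cycles of dehydrogenation, hydration, a second dehydrogenation and thiolysis. Electrons from the first dehydrogenation pass to electron transfer flavoprotein, and auxiliary enzymes move double bonds, release free acids from CoA or remove faulty intermediates. White adipocytes mainly store fatty acids, while beige and brown adipocytes burn them for heat.

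The counts on the analysed genes ran from 16093037 to 28929673 per library, and counts of the 8 genes from 44 to 20923. A library stood apart in each group. Log2 CPM (library-scaled counts) of NJT-2 replicates 1 and 3 correlated with r = 0.989 over genes, while NJT-2 replicate 2 reached r = 0.822 and 0.836 with them. Control replicates 2 and 3 had r = 0.952, and control replicate 1 had r = 0.874 and 0.75 with them. The ferritin gene *Fth1* held 9.97% of the counts in control replicate 1, 6.26% and 3.44% in the other controls, and 1.95% and 2.07% in NJT-2 replicates 1 and 3.

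The 160 bases upstream of 4 start sites are shown. *Acot2* and *Echdc1* are the members that passed the test, and *Cpt1c* had the smallest p among those with a negative fold change. *Acadvl*, which was not called, is an example of a gene of the oxidation cycle with the AGGTCA hexamer. The stretches are from RefSeq promoters on GRCm38.p6, written 5′ to 3′ on the gene's strand and ending at the base before the start site. Capitals mark AGGTCA, the core hexamer that PPAR and other nuclear receptors bind, the CCAAT box and the GC box GGGCGG, on either strand. The stretches lie at chr12:83987701-83987860 (+) for *Acot2*, chr10:29313006-29313165 (+) for the upstream start of *Echdc1*, chr7:44974852-44975011 (−) for *Cpt1c* and chr11:70015429-70015588 (−) for *Acadvl*.
Acot2: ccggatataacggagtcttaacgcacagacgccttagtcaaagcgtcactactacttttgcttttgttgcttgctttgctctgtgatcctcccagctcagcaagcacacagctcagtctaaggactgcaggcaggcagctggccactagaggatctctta
Echdc1: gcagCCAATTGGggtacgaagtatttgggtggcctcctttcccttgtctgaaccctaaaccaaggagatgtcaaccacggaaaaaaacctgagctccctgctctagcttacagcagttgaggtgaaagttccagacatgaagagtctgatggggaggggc
Cpt1c: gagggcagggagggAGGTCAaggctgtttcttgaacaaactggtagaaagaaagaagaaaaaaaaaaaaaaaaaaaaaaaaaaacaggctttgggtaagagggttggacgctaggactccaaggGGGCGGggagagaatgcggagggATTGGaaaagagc
Acadvl: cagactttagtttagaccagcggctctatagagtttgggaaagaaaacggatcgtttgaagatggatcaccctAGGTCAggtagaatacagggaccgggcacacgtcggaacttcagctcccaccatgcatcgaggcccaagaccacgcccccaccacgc

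All 8 genes matched a RefSeq promoter, *Echdc1* with 2 start sites. In the 250 bases upstream, AGGTCA was found on either strand in *Cpt1a*, *Cpt1c*, *Acadvl* and *Echs1*, that is in 4 of 8 genes, against 14.0% of 32851 promoters. In *Cpt1c* it lay 146 to 141 bases before the start site and in *Acadvl* 87 to 82 bases. It was not found in this window of *Eci1*, *Etfb*, *Acot2* or *Echdc1*. The direct repeat of 2 AGGNCA sites with 1 base between them, present in 0.338% of promoters, was in none of the 8, and neither were TCAAGGTCA, the ERR site (0.387% of promoters), TGCGCA, the core of the NRF1 site (6.43%), TGACGTCA, the cyclic AMP response element (1.55%), CACGTG, the E-box (6.02%), or TATAAA, the TATA box (12.4%). CCAAT was in 5 of the 8 genes against 33.8% of promoters, and GGGCGG in 4 against 32.7%. These are matches of letters in one window and no measure of binding.

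The comparison of NJT-2-treated with control adipocytes asked which steps of fatty acid oxidation differed in RNA level. A gene was called when its adjusted p (edgeR quasi-likelihood test, Benjamini-Hochberg over the 3705 tested genes) was under 0.05 and its log2 fold change beyond 1 in size. *Acot2* and *Echdc1* rose, by 11.5-fold and 7.94-fold. No member was called lower. The remaining 6 were not called, and among them *Eci1*, *Echs1* and *Acadvl* had positive log2 fold changes and *Cpt1c*, *Etfb* and *Cpt1a* negative ones.

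These 2 of 8 genes compare with 21 of 3705 genes called higher, 0.567% of those tested, and with 5 called lower, 0.135%. At an unadjusted p under 0.05, 3 members were higher and 1 was lower, where 8.04% of tested genes were higher and 9.72% lower. The FPKM values of the groups did not overlap in 3 members with NJT-2 above (*Acot2*, *Echdc1*, *Eci1*) and in 1 with NJT-2 below (*Cpt1c*), where 14.4% and 11.5% of tested genes had such a gap. The median log2 fold change was 0.90 over the 8 genes and 0.02 over all tested genes.

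**Figure D1:**
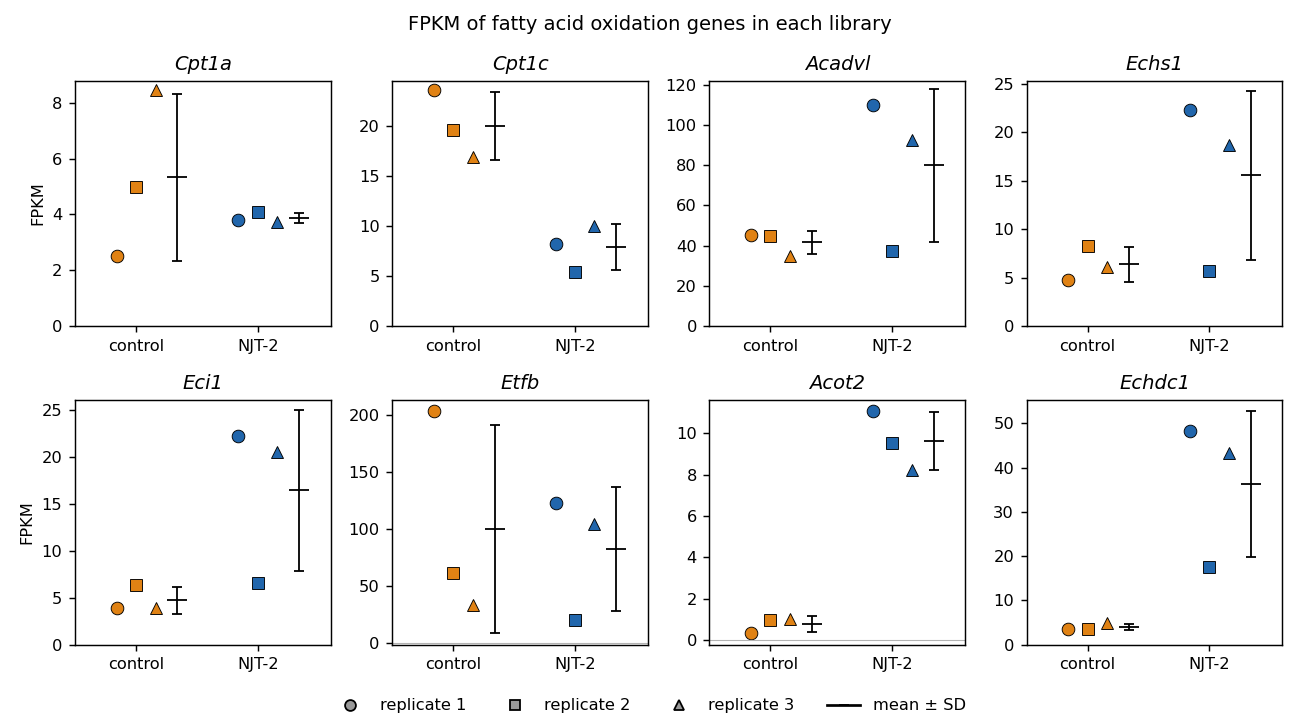
FPKM of the 8 genes (vertical axis, linear, one scale per gene) in the 3 control and 3 NJT-2 libraries, with symbols for the replicate and a dash with bars for the mean ± SD. *Acot2*, *Echdc1* and *Eci1* lie above all controls in each NJT-2 library and *Cpt1c* below, while NJT-2 replicate 2 lies among the controls for *Acadvl* and *Echs1*.

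*Acot2* (ENSMUSG00000021226, chr12:83987861-83993873 on GRCm38, + strand) encodes a mitochondrial thioesterase that cleaves long-chain acyl-CoA into free acid and CoA. Its FPKM was 0.34, 0.99 and 1.05 in control replicates 1 to 3 and 11.08, 9.53 and 8.24 in NJT-2 replicates 1 to 3. The lowest NJT-2 library was far above the highest control, and NJT-2 replicate 2 stood between the other two. The mean rose from 0.793 ± 0.394 to 9.62 ± 1.42 (SD, n = 3 each). The read counts behind these values were 44, 193 and 164 against 1727, 1467 and 1266.

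The log2 fold change of *Acot2* was 3.52 (SE 0.44, edgeR adjusted p = 0.027), and its p ranked 4 among all tested genes. The call was lost when a library was left out, except NJT-2 replicate 2: the edgeR adjusted p was 0.0617, 0.243 and 0.0751 without control replicate 1, 2 and 3, and 0.11 and 0.1 without the NJT-2 library of replicate 1 or 3, with log2 fold changes between 3.25 and 3.65. Of the 100-base windows of its longest transcript, 17.1% also occur in the paralog *Acot1*, which was not analysed here, so reads from this stretch could have come from either gene.

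*Echdc1* (ENSMUSG00000019883, chr10:29313166-29345560, + strand) encodes ethylmalonyl-CoA decarboxylase, a cytosolic proofreading enzyme that removes a faulty by-product of acetyl-CoA carboxylase. Its FPKM was 3.52, 3.61 and 4.76 in the controls and 48.28, 17.44 and 43.3 in NJT-2 replicates 1 to 3. The controls lay close together, and every NJT-2 library was above them, with replicate 2 the lowest at 0.381 of the mean of the other two. The mean rose from 3.96 ± 0.691 to 36.3 ± 16.6 (SD, n = 3 each).

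The log2 fold change of *Echdc1* was 2.99 (SE 0.44, edgeR adjusted p = 0.0408). Here too the call held without NJT-2 replicate 2 (edgeR adjusted p = 0.0143) and was lost without any other single library. The edgeR adjusted p was 0.0923, 0.3 and 0.0851 without control replicate 1, 2 and 3. It was 0.12 and 0.129 without the NJT-2 library of replicate 1 or 3. In the fits that lost the call the log2 fold change stayed between 2.74 and 3.08. *Echdc1* overlaps an antisense gene, *Gm46218*, over 660 bases and the opposite-strand gene *Rnf146* over 1385 bases, and whether counting used strand is not stated in the sources used here.

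Both carnitine palmitoyltransferase 1 genes among the 8 had negative log2 fold changes, and neither was called. *Cpt1a* (ENSMUSG00000024900, chr19:3322334-3385733, + strand) encodes the liver-type isoform of carnitine palmitoyltransferase 1. It measured 2.51, 4.99 and 8.47 FPKM in the controls and 3.8, 4.09 and 3.72 FPKM in the NJT-2 libraries. All NJT-2 values fell inside the range of the controls, whose highest was 3.37 times the lowest, while the NJT-2 libraries spanned 1.1-fold. On the log2 scale the fold change was -0.54 (SE 0.36, edgeR adjusted p = 0.412).

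*Cpt1c* (ENSMUSG00000007783, chr7:44959372-44974775, − strand) encodes the isoform known from neurons, which sits in the endoplasmic reticulum and has little catalytic activity. Its FPKM was 23.57, 19.54 and 16.84 in the controls and 8.21, 5.42 and 9.98 in the NJT-2 libraries. Every NJT-2 library was below every control. The means were 20.0 ± 3.39 and 7.87 ± 2.3 (SD, n = 3 each), and the log2 fold change was -1.61 (SE 0.41, edgeR adjusted p = 0.137).

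DESeq2, run as an alternative, called *Cpt1c* lower with an adjusted p of 0.00924, where 3.40% of tested genes were called lower by that tool. An antisense transcript, *6530437J22Rik*, overlaps the gene over 3875 bases. Of 6 listed neuron markers, 2 were in the table, *Map2* and *Rbfox3*, with summed FPKM of 0, 0.33 and 2.43 in the controls and 0.65, 2.75 and 0.42 with NJT-2. Their part in the level of *Cpt1c* was not tested.

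*Cpt1c* had a higher FPKM than *Cpt1a* in all 6 libraries. The ratio of *Cpt1c* to *Cpt1a* FPKM was 9.39, 3.92 and 1.99 in the controls and 2.16, 1.33 and 2.68 with NJT-2. These ratios overlapped between the groups, with control replicate 1 the highest. The summed FPKM of the pair was nearly equal among controls, at 26.1, 24.5 and 25.3, and was 12.0, 9.51 and 13.7 with NJT-2, so that the sums, which were mostly *Cpt1c*, did not overlap. The muscle-type gene *Cpt1b* and the inner-membrane enzyme *Cpt2* were not analysed here.

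**Figure D2:**
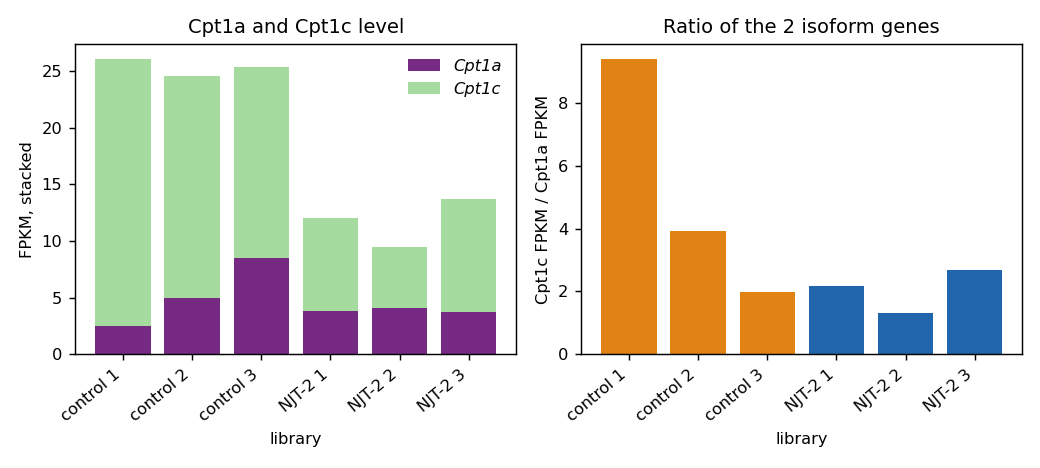
Stacked FPKM of *Cpt1a* and *Cpt1c* per library (left) and the ratio of *Cpt1c* to *Cpt1a* FPKM (right). The stacked level is 24.5 to 26.1 in controls and 9.51 to 13.7 in NJT-2 libraries, and the ratio overlaps between groups.

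*Acadvl*, *Echs1* and *Eci1*, genes of the matrix cycle, were high in NJT-2 replicates 1 and 3 and near control in NJT-2 replicate 2. *Acadvl* (ENSMUSG00000018574, chr11:70010183-70015411, − strand) encodes very long-chain acyl-CoA dehydrogenase, which starts each cycle on the longest chains. Its FPKM was 45.03, 44.79 and 34.78 in the controls and 109.78, 37.28 and 92.33 with NJT-2. Replicate 2 lay inside the control range, and replicates 1 and 3 above it. Its log2 fold change was 0.68 (SE 0.47, edgeR adjusted p = 0.413). The opposite-strand gene *Dvl2* overlaps it over 2119 bases.

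*Echs1* (ENSMUSG00000025465, chr7:140105710-140116476, − strand) encodes short-chain enoyl-CoA hydratase, the hydration step. It measured 4.77, 8.28 and 6.05 FPKM in the controls and 22.29, 5.68 and 18.7 FPKM with NJT-2. Replicate 2 again lay within the controls. For *Echs1* the log2 fold change was 1.11 (SE 0.48, edgeR adjusted p = 0.287). *Paox*, on the opposite strand, overlaps it over 678 bases. Its exon union, which the length behind its FPKM matches closely, is 8286 bases, 2.03 times its longest transcript, so its level per length is understated beside genes such as *Acot2*, where this ratio is 1.0.

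*Eci1* (ENSMUSG00000024132, chr17:24426641-24439348, + strand) encodes enoyl-CoA delta isomerase 1, which shifts double bonds so that unsaturated chains can continue through the cycle. Its FPKM was 3.93, 6.39 and 3.85 in the controls and 22.18, 6.58 and 20.55 with NJT-2. The groups did not overlap, but NJT-2 replicate 2 and control replicate 2 nearly met. The log2 fold change was 1.59 (SE 0.49, edgeR adjusted p = 0.189). DESeq2 called it higher with an adjusted p of 0.0367, where it called 4.40% of tested genes higher.

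*Etfb* (ENSMUSG00000004610, chr7:43444083-43457800, + strand) encodes the beta subunit of electron transfer flavoprotein, which takes electrons from the acyl-CoA dehydrogenases. Its FPKM was 203.7, 61.53 and 33.34 in the controls and 122.52, 20.37 and 104.58 with NJT-2. The values varied more within each group than for any other of the 8 genes, with control replicate 1 the highest and NJT-2 replicate 2 the lowest of all libraries. Between groups the log2 fold change was -0.74 (SE 0.92, edgeR adjusted p = 0.653). It was 0.74 without control replicate 1, and 0.42 after each library's trend with gene length was taken out, so that no direction can be given for *Etfb*. Of its 100-base windows, 65.2% also occur in the overlapping same-strand gene *Gm45233*, so how reads were divided between them affects its level.

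Among the controls the mean FPKM ran from *Etfb* (99.5 ± 91.3) through *Acadvl* (41.5 ± 5.85), *Cpt1c* (20.0 ± 3.39), *Echs1* (6.37 ± 1.78), *Cpt1a* (5.32 ± 2.99), *Eci1* (4.72 ± 1.44) and *Echdc1* (3.96 ± 0.691) to *Acot2* (0.793 ± 0.394). The ranges of mean ± SD overlapped for *Etfb* and *Acadvl*, and for the neighbours from *Echs1* to *Echdc1*. In NJT-2 libraries the order of means was *Etfb* (82.5 ± 54.5), *Acadvl* (79.8 ± 37.8), *Echdc1* (36.3 ± 16.6), *Eci1* (16.4 ± 8.57), *Echs1* (15.6 ± 8.74), *Acot2* (9.62 ± 1.42), *Cpt1c* (7.87 ± 2.3) and *Cpt1a* (3.87 ± 0.195). *Echdc1* stood below *Cpt1c* in every control library and above it in every NJT-2 library. In the NJT-2 order the ranges of mean ± SD overlapped for most neighbours, but not for *Cpt1c* and *Cpt1a*. These are levels per exon union, which is 1.72 times the longest transcript for *Cpt1c*, 1.77 for *Cpt1a* and 1.87 for *Eci1* but 1.07 for *Echdc1*, so the order of close neighbours may differ with another length.

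The 8 genes did not move as one block across libraries. As log2 CPM less the control mean, the median over the 8 was 1.42 in NJT-2 replicate 1, -0.23 in replicate 2 and 1.14 in replicate 3, where the median over all tested genes stayed within 0.03 of 0 in each library. In NJT-2 replicate 2 the FPKM was 0.179 of the mean of replicates 1 and 3 for *Etfb*, 0.277 for *Echs1*, 0.308 for *Eci1*, 0.369 for *Acadvl* and 0.381 for *Echdc1*. It was 0.596 for *Cpt1c*, 0.987 for *Acot2* and 1.09 for *Cpt1a*. *Acot2* and *Cpt1a* were thus at a like level in all NJT-2 libraries. *Etfb*, *Echs1*, *Eci1*, *Acadvl* and *Echdc1* were lower in replicate 2.

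**Figure D3:**
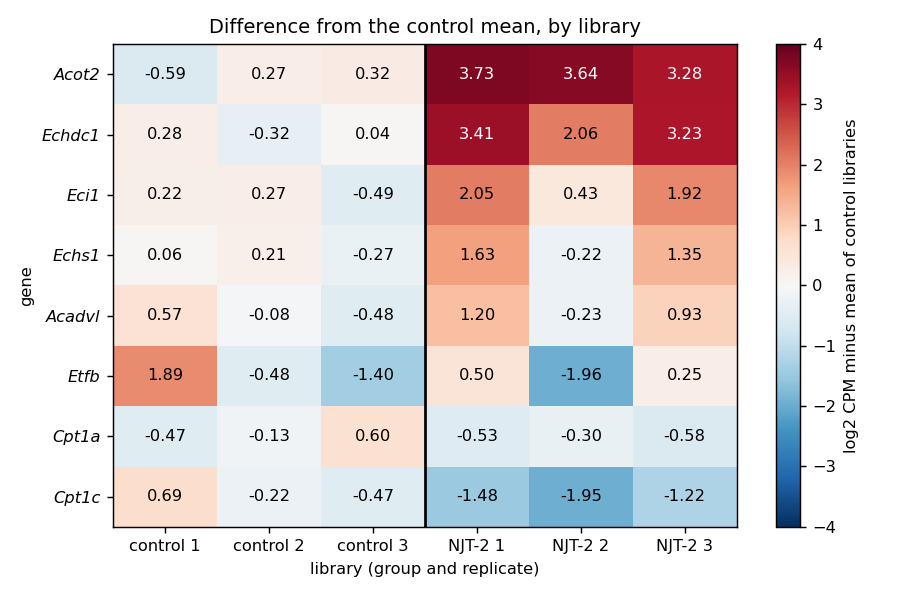
Log2 CPM less the mean of the control libraries for each gene (vertical) and library (horizontal), with the value in each cell and red for above and blue for below. *Acot2* is at 3.73, 3.64 and 3.28 in the NJT-2 libraries, whereas *Eci1*, *Echs1*, *Acadvl* and *Etfb* are at 0.43, -0.22, -0.23 and -1.96 in NJT-2 replicate 2.

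Without control replicate 1 and NJT-2 replicate 2, a choice made after seeing the data, 6 of the 8 genes were called: *Acot2*, *Echdc1*, *Eci1*, *Echs1* and *Acadvl* higher and *Cpt1c* lower. In that fit 6.88% of all tested genes were called higher and 6.13% lower, and with 2 libraries per group the spread is estimated from 4 libraries. The log2 fold changes were 3.25 for *Acot2*, 3.45 for *Echdc1*, 2.05 for *Eci1*, 1.51 for *Echs1*, 1.34 for *Acadvl* and -1.01 for *Cpt1c*. *Etfb* was at 1.25 (edgeR adjusted p = 0.0505) and *Cpt1a* at -0.84 (edgeR adjusted p = 0.0942).

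**Figure D4:**
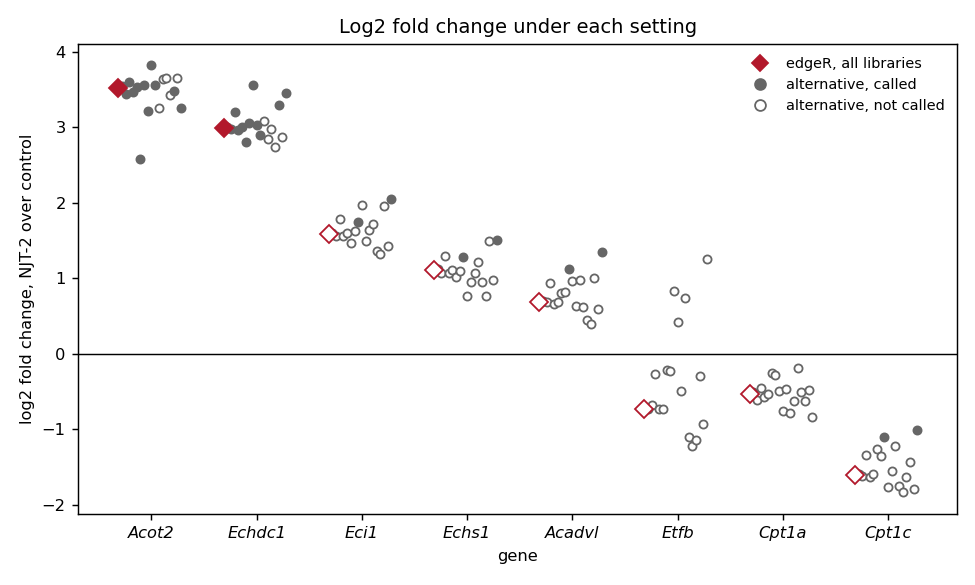
Log2 fold change (vertical axis) of each gene with all libraries in edgeR (red diamonds) and under 17 alternatives (grey points), filled where the gene was called. *Acot2* stays between 2.58 and 3.82 and *Echdc1* between 2.74 and 3.56, while *Etfb* runs from -1.23 to 1.25.

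Adipocyte markers differed between the groups along with these genes. All 10 tested of the 17 listed markers were higher with NJT-2 at an unadjusted p under 0.05 (edgeR quasi-likelihood test), and 6 were called. Over all tested genes, 8.04% were higher at that p and 0.567% were called higher. *Adipoq*, the adipokine adiponectin, was at 0.38, 0.5 and 0.39 FPKM in the controls and 64.63, 22.04 and 58.45 FPKM with NJT-2 (log2 fold change 6.62, edgeR adjusted p = 0.0127). The summed FPKM of the markers ran from 82.5 to 106 in the controls and was 1720, 489 and 1380 in NJT-2 replicates 1 to 3. In NJT-2 replicate 2 the sum was 0.315 of the mean of the other two, a ratio that was 0.179 for *Etfb*, 0.277 to 0.381 for *Echs1*, *Eci1*, *Acadvl* and *Echdc1*, 0.596 for *Cpt1c*, 0.987 for *Acot2* and 1.09 for *Cpt1a*. In such bulk samples a larger share of adipocytes and more RNA of a gene per adipocyte cannot be told apart.

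Markers of other cells moved as well. Of 5 tested preadipocyte and fibroblast genes, 3 were lower at an unadjusted p under 0.05 (edgeR quasi-likelihood test), as were 9.72% of tested genes. Among the 3 only *Pi16* was called lower (log2 fold change -3.83). *Dcn*, also among the 3, overlapped between the groups (edgeR adjusted p = 0.195). *Col1a1* and *Cd34* overlapped too, with an unadjusted p above 0.05 in the same test. The sums of the listed genes were 227, 781 and 999 FPKM in the controls and 444 to 488 FPKM with NJT-2. Of 4 tested macrophage genes, 3 were higher at an unadjusted p under 0.05 (edgeR quasi-likelihood test), as were 8.04% of tested genes. Among these 3 only *Adgre1* was called (log2 fold change 3.23). *Fcgr1*, also among the 3, overlapped between the groups (edgeR adjusted p = 0.248). The macrophage sums were 9.67 to 12.8 FPKM in the controls and 31.6 to 59.1 FPKM with NJT-2. *Csf1r* overlapped between the groups, at 2.52 to 3.69 FPKM and 3.05 to 4.56 FPKM. Of 4 listed hepatocyte genes, *Cyp2e1* was in the table, at 0, 0.02 and 0.09 FPKM in the controls and 6.0, 1.09 and 2.77 FPKM with NJT-2 (edgeR adjusted p = 0.0853). The part of these markers in the values of the 8 genes was not tested.

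The other genes of fatty acid oxidation were read from 9 lists by step, which hold 86 genes reported here. Besides the 8 genes, 20 of them were in the table and 15 were tested. At an unadjusted p under 0.05 (edgeR quasi-likelihood test), 4 of the 15 were higher and 1 was lower. The shares over all tested genes were 8.04% higher and 9.72% lower. The median log2 fold change of the 15 was 0.26. *Ehhadh*, the bifunctional enzyme of peroxisomal β-oxidation, had a log2 fold change of 1.91 with overlapping groups (edgeR adjusted p = 0.258).

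In the acyl-CoA synthetases, which activate fatty acids before they can be stored or oxidised, the tested genes had opposite signs. *Acsl1* was at 0.92, 2.6 and 3.51 FPKM in the controls and 154.82, 9.36 and 121.96 FPKM with NJT-2, with a log2 fold change of 5.24 (SE 1.0, edgeR adjusted p = 0.0775). The groups did not overlap, but replicate 2 was far below the other NJT-2 libraries. *Acsl5* had a log2 fold change of -0.91 (SE 0.27, edgeR adjusted p = 0.182). *Slc22a5*, the carnitine transporter of the plasma membrane, was at 0.94 (SE 0.35, edgeR adjusted p = 0.243), and *Eci2*, an isomerase like *Eci1*, at 0.85 (SE 0.34, edgeR adjusted p = 0.264).

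Within the thioesterases, *Acot2* was the called one of 4 tested, and the other 3 (*Acot8*, *Acot9*, *Acot13*) had an unadjusted p above 0.05 in edgeR's quasi-likelihood test. In the remaining steps *Gcdh*, a dehydrogenase of lysine breakdown, and *Hsd17b10*, a dehydrogenase with several substrates, also had an unadjusted p above 0.05.

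**Figure D5:**
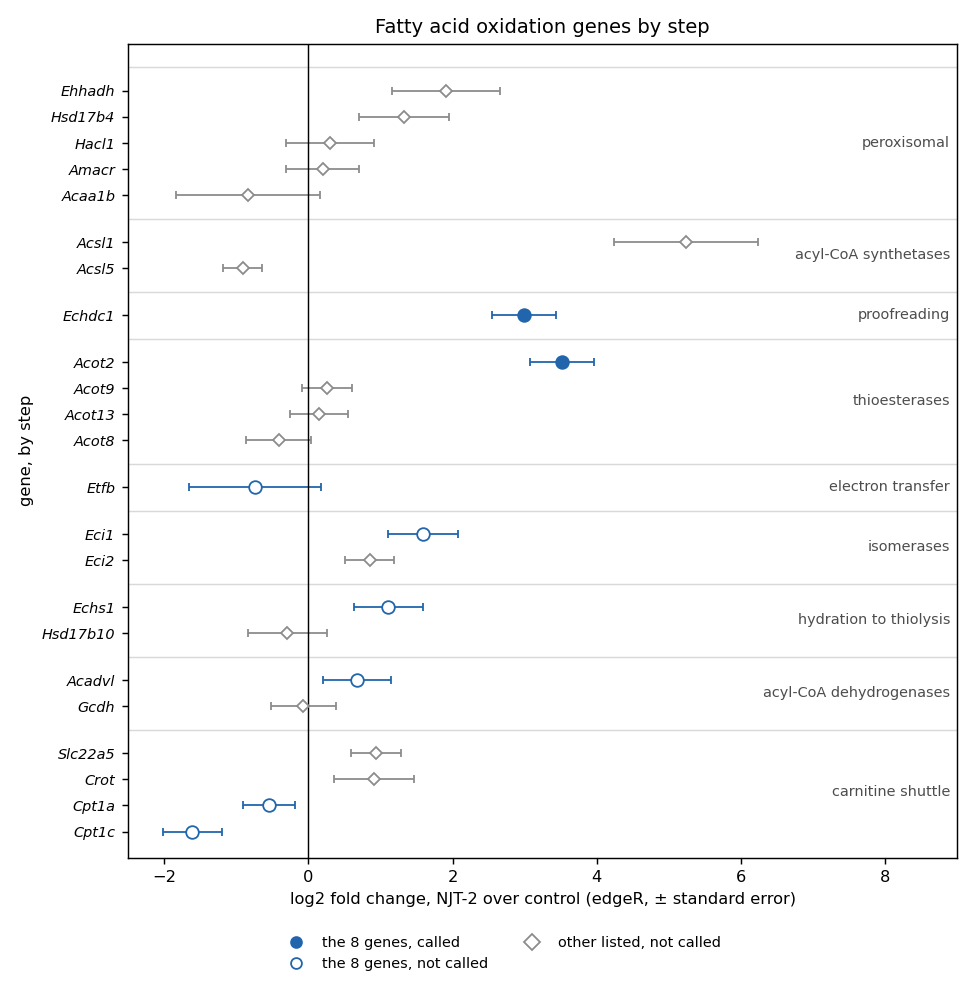
Log2 fold change with its standard error (horizontal axis) of the tested oxidation genes reported here, grouped by step, blue circles for the 8 genes and grey diamonds for the others, filled where called. *Acot2* and *Echdc1* are the filled points.

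Among regulators of oxidation, *Lpin1*, a phosphatidate phosphatase and coactivator, was called higher (log2 fold change 3.12, SE 0.4, edgeR adjusted p = 0.027). *Pparg* was at 2.63 (SE 0.61, edgeR adjusted p = 0.119) and *Acaca*, the carboxylase whose product malonyl-CoA inhibits carnitine palmitoyltransferase 1, at 1.37 (SE 0.48, edgeR adjusted p = 0.221). *Ppara*, the nuclear receptor that drives oxidation genes in liver, was under the expression limit, with counts of 0, 12 and 23 in the controls and 416, 85 and 255 with NJT-2. Every NJT-2 count of *Ppara* was above every control count, and in the fit without the expression limit its edgeR adjusted p was 0.188.

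Of 12 tested genes for mitochondrial mass, 3 were higher at an unadjusted p under 0.05 (edgeR quasi-likelihood test), as were 8.04% of tested genes. The median log2 fold change of the 12 was 0.34. *Hspa9*, the matrix chaperone, was called (log2 fold change 1.86, SE 0.3, edgeR adjusted p = 0.0471). *Cs*, citrate synthase, was at 1.6 (edgeR adjusted p = 0.164) and *Vdac1*, the outer-membrane channel, at 1.31 (edgeR adjusted p = 0.247). *Vdac1* was highest in NJT-2 replicate 2, at 197.56 FPKM against 89.31 and 81.76 in the other two, the reverse of *Acadvl*, *Echs1*, *Eci1* and *Etfb*.

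For each of the 8, the 2 genes with the most similar log2 CPM over the 6 libraries were taken from the other 3704. They were *Rmc1* (Pearson's r = 0.996) and *Mknk2* (0.994) for *Acot2*, *Slc36a2* (0.998) and *Mlxipl* (0.997) for *Echdc1*, and *Coro1c* and *Kcnd1* (0.996 each) for *Cpt1c*. For *Acadvl* they were *Coasy* (0.995) and *Fars2* (0.993), and for *Echs1* they were *Oxa1l* (0.993) and *Sucla2* (0.992). *Eci1* had *Idh3g* (0.993) and *Mdh1* (0.989), and *Etfb* had *Timm50* (0.998) and *Wars* (0.997). *Cpt1a* had the least similar partners, *Thbs2* (0.951) and *Nuak1* (0.929).

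Between members, r was 0.96 for *Echs1* with *Eci1*, 0.91 for *Acadvl* with *Echs1*, 0.92 for *Acot2* with *Echdc1*, -0.94 for *Acot2* with *Cpt1c* and 0.19 for *Cpt1a* with *Cpt1c*. The 6 points of each value share library, depth and group, and the highest of 3704 values is high by choice, so they describe these libraries only.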

How the data were processed

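RNA from 3 control and 3 NJT-2 libraries was sequenced as poly(A)-selected, dUTP-marked paired ends. The submitters' processing notes name cutadapt 1.9, HISAT2 2.2.1, StringTie 2.1.6, DESeq2 and edgeR and the build GRCm38, without saying which counted the reads. The authors deposited raw read counts per gene, not normalized. The deposited FPKM values, which the authors computed, equal the count divided by a gene length and a library total, and this length matched the union of all exons of the gene in GENCODE M21. The table had 4865 lines, of which 1 was incomplete and left out, and other genes were not analysed here. The 4864 genes held 27.7% to 32.5% of each library. No value column was left without a sample.

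Counts were tested in R 4.3.3 with edgeR 4.0.16 (quasi-likelihood test, TMM factors, group as the only term) over the 3705 genes whose FPKM averaged 0.5 or more. Called genes had a Benjamini-Hochberg adjusted p under 0.05 and a log2 fold change beyond 1 in size. Standard errors are the log2 fold change divided by the square root of F. The common biological coefficient of variation was 0.504. Log2 CPM used a prior count of 2. The procedure was tested on simulated data before use. All pairs of libraries differed by more than sampling noise. Counting error is small beside the spread between libraries, and depth was 16093037 to 28929673 counts.

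Named are all 8 genes, genes of the pathway lists with an unadjusted p under 0.05 (at most 3 per list by smallest p), *Ppara*, and for each of the 8 the 2 genes with the most similar log2 CPM. Cell type markers were outside this rule: they are given as counts and sums, and those named were chosen after their values were seen, as were a few pathway genes beside a count. The values of 1 listed gene that this rule names are not reported here, and it was left out of the list counts and the plot by step. The 8 genes and the lists were chosen with earlier results of these data known. Alternatives were DESeq2 1.42.0, upper-quartile factors, library totals implied by FPKM, other expression limits, limma 3.58.1 on log2(FPKM + 1) and log2(FPKM + 0.1), voom with sample weights, removal of the length trend, a replicate block, and leaving out each library. Leaving out control replicate 1 with NJT-2 replicate 2, and overlap on log2 CPM, were added after seeing the data.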

Additional observations from a re-analysis of the deposited data

How the results depend on the processing

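*Acot2* and *Echdc1* were called in edgeR with upper-quartile factors, implied library totals, both other expression limits, removal of the length trend and the replicate block, and in both limma fits, DESeq2 and voom. Over all 17 alternatives the adjusted p ran from 7.9e-13 to 0.243 for *Acot2* and from 7.43e-09 to 0.3 for *Echdc1*. The number of the 8 genes called was 2 with all libraries, 0 to 2 when each library was left out in turn, 4 in DESeq2, 6 in voom with sample weights and 6 without control replicate 1 and NJT-2 replicate 2. The number of all genes called was 26, against 289 in DESeq2, 727 in voom, 40 with the length trend removed, 57 with the replicate block, 482 without control replicate 1 and NJT-2 replicate 2, and 0 to 75 with each library left out. The 0 was without control replicate 2, where edgeR's quasi-likelihood test gave 421 genes an unadjusted p under 0.05. The cause of these differences in counts was not tested. Of the 8 genes, 4 had an unadjusted p under 0.05 (17.8% of all tested genes did), against 8 in voom (60.7% of all) and 8 in edgeR without control replicate 1 and NJT-2 replicate 2 (32.5% of all). With each library left out, 3 to 6 of the 8 did, where 410 to 1049 of the 3705 tested genes did. Groups did not overlap in 4 of the 8 genes (25.9% of all tested genes), and in 8 without both those libraries (63.9% of all), where fewer values must be apart. The log2 fold change of *Etfb*, -0.74, became 0.83 in voom, 0.42 with the length trend removed, between -1.23 and 0.74 with each library left out (0.74 without control replicate 1) and 1.25 without control replicate 1 and NJT-2 replicate 2. The other 7 genes kept their sign in all 17 alternatives. Implied library totals moved the median log2 fold change of all genes to 0.16 and limma to 0.14 and 0.17, so the changes of the 8 genes under them are to be read against that shift.

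Deviations from the group means correlated at 0.179, 0.0325 and -0.207 between libraries of the same replicate number. With so few values, whether the numbers pair the libraries cannot be told. With the replicate block, 2 of the 8 genes were called, with an edgeR adjusted p of 0.0109 for *Acot2* and 0.0056 for *Echdc1*, and 57 genes in all. Not every library correlated best with its own number. With 3 libraries per group and a common coefficient of variation of 0.504, a change in the 6 genes not called may have been missed.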
